A study of Bos taurus with 9 samples.

Results

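Transcripts of 9 receptor genes for progesterone and related steroids were followed through 3 culture conditions of bovine uterine gland fragments. The genes were the nuclear receptors PGR, ESR1 and NR3C1, the membrane progestin receptors PAQR5, PAQR6, PAQR7 and PAQR8, and the membrane-associated components PGRMC1 and PGRMC2. They were chosen by name, as 9 of 20679 genes listed, with fold changes in these same libraries already known, so their values are a description and the adjusted p-values only place each gene in the fit of all genes. The fragments came from luteal-stage uteri collected at an abattoir and were cultured for 5 days in Matrigel, a basement membrane gel, in serum-free medium with insulin, transferrin, selenite, ascorbic acid and albumin. CONT_M received no EGF and formed cysts, EGF_M received 5 ng/ml EGF and formed gland-like structures, and EGF_MCOL received the same EGF in Matrigel with 0.5 mg/ml type I collagen. Each group had 3 libraries, none of the listed medium components was a steroid, and no animal was named for any library.

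Progesterone acts on the endometrium through PGR, a ligand-activated transcription factor, whose loss from the gland epithelium during the luteal phase is a known feature of ruminants. ESR1 (oestrogen receptor alpha) and NR3C1 (glucocorticoid receptor) belong to the same nuclear receptor family. The PAQR proteins are receptors of the cell membrane that bind progestins and act without direct contact with DNA, and PGRMC1 and PGRMC2 are haem-binding membrane proteins linked to progesterone responses.

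With EGF, the gland cultures held more PAQR6 and PAQR8 transcript and less PAQR7, while the summed level of the nuclear receptors was nearly level across groups. That sum was mostly ESR1 (60.2% to 73.0% in group means), so it says little of NR3C1 or PGR. PAQR6 (membrane progestin receptor delta) averaged 24.7 ± 3.47 TPM in CONT_M, 131.8 ± 9.90 in EGF_M and 144.2 ± 3.71 in EGF_MCOL (SD, n = 3 each; TPM is the deposited transcript level, scaled by transcript length and library size). PAQR8 (receptor beta) averaged 26.5 ± 6.98, 60.3 ± 8.25 and 62.3 ± 10.3 TPM. PAQR7 (receptor alpha) averaged 4.06 ± 2.28, 0.572 ± 0.142 and 1.04 ± 0.409 TPM. PGR stayed at or below 2.18 TPM in all 9 libraries. In bulk RNA, fewer cells of a type and less RNA per cell cannot be told apart.

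**Figure D1:**
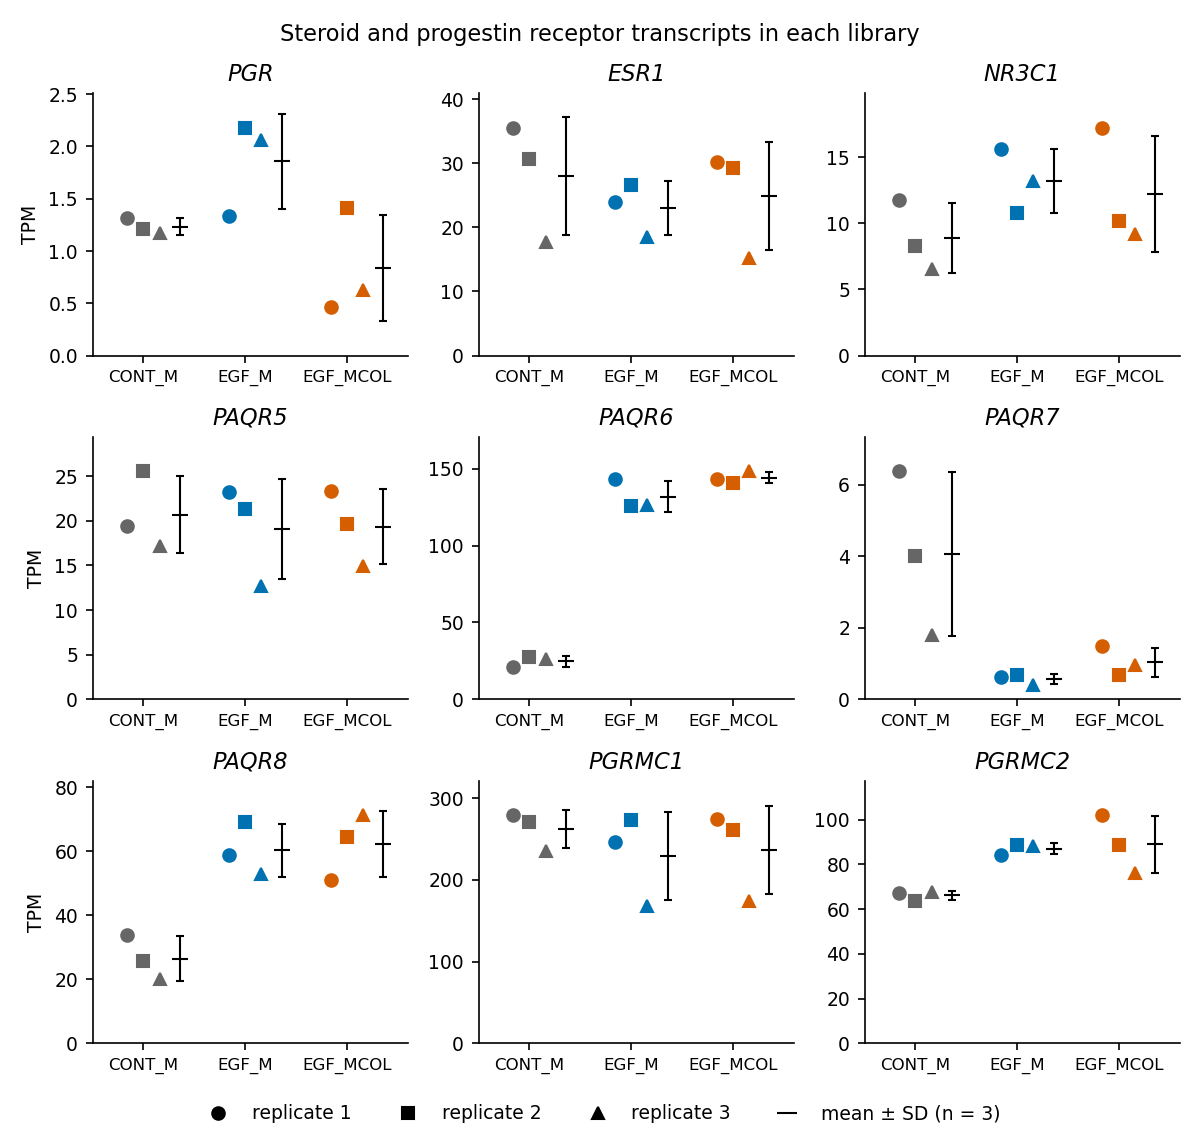
Level of each receptor gene in each library (y axis, TPM, from 0) by culture group, with the replicate number as the symbol and the mean ± SD (n = 3) as a bar. PAQR6 sits between 20.8 and 27.3 TPM in CONT_M and between 125.9 and 148.1 in the 6 libraries with EGF, while ESR1, PAQR5 and PGRMC1 overlap between groups.

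Library totals ran from 8424028 to 16829884 counts in CONT_M, from 6568968 to 17936445 in EGF_M and from 16665013 to 17948600 in EGF_MCOL. The labels call the samples bovine uterine gland. Summed TPM of 8 markers of gland epithelium was 17669 to 19096 in CONT_M, 28245 to 43972 in EGF_M and 29107 to 39224 in EGF_MCOL, led by keratins, although SOX17 had at most 3 counts per library in CONT_M and EGF_M. The 10 stromal markers summed to 2260 to 4878, 1208 to 3798 and 2231 to 4315 TPM, with HAND2 at 3 counts or fewer in every library, and the 5 smooth muscle markers to 148.9 to 187.8, 40.5 to 88.6 and 73.5 to 94.9 TPM. Endothelial (5 genes), leukocyte (7 genes) and ciliated cell markers (4 of 5 genes listed) summed to at most 27.5, 49.5 and 26.7 TPM in any library. The part of these cell types in the results was not tested.

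The nuclear receptors came to 38.0 ± 11.7 TPM in CONT_M, 38.1 ± 3.79 in EGF_M and 37.9 ± 11.7 in EGF_MCOL when summed. PGR (ENSBTAG00000024648, chromosome 15, 7854787 to 7966985, plus strand of ARS-UCD2.0, as for all positions given here) measured 1.32, 1.21 and 1.17 TPM in replicates 1, 2 and 3 of CONT_M. It measured 1.33, 2.18 and 2.06 TPM in EGF_M and 0.469, 1.41 and 0.628 TPM in EGF_MCOL. The highest CONT_M library and the lowest EGF_M library thus lay next to each other, and EGF_MCOL overlapped with both groups. These levels rested on 10 to 48 counts per library, and a count of 11 has an exact Poisson interval of 5.49 to 19.7. In the plot of fold changes PGR has the widest intervals, with a log2 difference of 0.59 (standard error, SE, 0.53, adjusted p = 0.581 in edgeR's quasi-likelihood test, with a threshold of 0.05 over all genes tested) between EGF_M and CONT_M and of -1.23 (SE 0.62, adjusted p = 1.00) between EGF_MCOL and EGF_M. The EGF_MCOL library was the lower in all 3 same-numbered pairs with EGF_M, at 0.305 to 0.648 of its partner.

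ESR1 (ENSBTAG00000007159, chromosome 9, 88683049 to 89098956, plus strand) was the most abundant of the nuclear receptors in every group. It measured 35.5, 30.6 and 17.7 TPM in CONT_M, 23.9, 26.6 and 18.5 in EGF_M, and 30.3, 29.2 and 15.2 in EGF_MCOL. The groups overlapped, and replicate 3 was the lowest in each of them. The log2 difference was -0.27 (95% interval -0.80 to 0.27) for EGF_M against CONT_M, and 0.02 (-0.57 to 0.62) for EGF_MCOL against EGF_M. Replicate 3 also had the highest summed stromal markers of each group. Its summed epithelial markers were the lowest of CONT_M and of EGF_M but the highest of EGF_MCOL. A link of these markers to ESR1 was not tested.

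NR3C1 (ENSBTAG00000019472, chromosome 7, 54344785 to 54463271, minus strand) measured 11.7, 8.28 and 6.55 TPM in CONT_M, 15.6, 10.8 and 13.2 in EGF_M, and 17.2, 10.2 and 9.21 in EGF_MCOL. Replicate 1 was the highest in each group, and each library with EGF exceeded the same-numbered CONT_M library, by 1.30 to 2.02 times in EGF_M and 1.23 to 1.47 times in EGF_MCOL. The log2 difference was 0.58 (SE 0.25, adjusted p = 0.242) for EGF_M against CONT_M, which did not pass the threshold. It did not pass either with the replicate number added to the fit as a block, which compares same-numbered libraries (adjusted p = 0.0991).

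Of the sum of squares of log2 CPM (counts scaled by library size, on a log scale) over the 9 libraries, the replicate number took 74.1% for ESR1, 52.5% for PAQR5 and 43.0% for NR3C1, against a median of 32.0% over 12858 genes. The culture group took 98.0% for PAQR6, 87.5% for PAQR8 and 85.8% for PAQR7, against a median of 29.9%. It also took more than the replicate number did for PGRMC2 (69.3%), PGR (60.0%) and NR3C1 (48.4%). For PGRMC1 the replicate number took 39.9% and the culture group 20.6%. In log2 CPM, replicate 3 was lowest in all 3 groups for 11.1% of genes, ESR1 among them. Replicate 1 was highest in all 3 for 7.33% of genes, NR3C1 among them. In TPM, replicate 3 was also the lowest in all 3 groups for PAQR5 and PGRMC1, which was not so in log2 CPM. The share of all genes with this order in TPM is not given here.

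**Figure D2:**
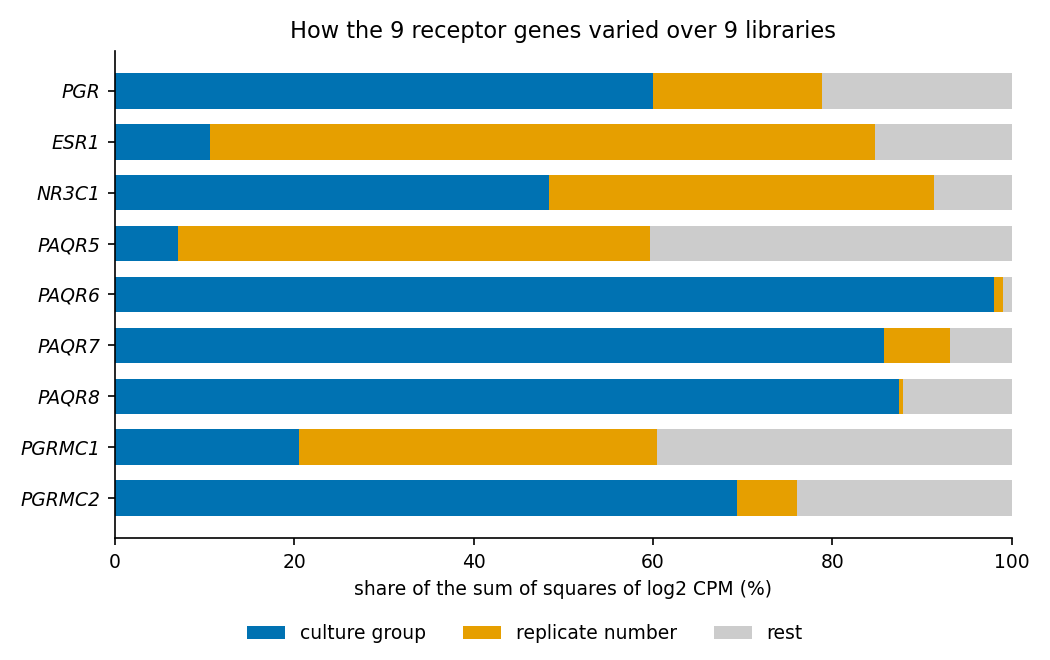
Share of the sum of squares of log2 CPM (x axis, %) that the culture group, the replicate number and the rest took for each receptor gene over 9 libraries. The bars for PAQR6, PAQR7 and PAQR8 are mostly culture group (98.0%, 85.8% and 87.5%), and the bar for ESR1 is mostly replicate number (74.1%).

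The membrane progestin receptors differed from each other in direction. Their summed level was 75.9 ± 9.47 TPM in CONT_M, 211.7 ± 17.5 in EGF_M and 226.8 ± 8.02 in EGF_MCOL. PAQR6 (ENSBTAG00000009434, chromosome 3, 14547298 to 14551086, plus strand) measured 20.8, 27.3 and 26.2 TPM in CONT_M, 143.2, 125.9 and 126.3 in EGF_M, and 143.5, 140.8 and 148.1 in EGF_MCOL. The CONT_M libraries lay far below all 6 libraries with EGF, which overlapped with each other. The ratio of mean TPM to CONT_M was 5.33 in EGF_M and 5.83 in EGF_MCOL, and same-numbered ratios ran from 4.62 to 6.91. PAQR6 exceeded 73.4% to 79.2% of listed genes in CONT_M libraries, 93.3% to 94.0% in EGF_M and 93.6% to 94.6% in EGF_MCOL.

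In edgeR, PAQR6 rose by 2.39 on the log2 scale in EGF_M against CONT_M (SE 0.21, adjusted p = 0.00866) and by 2.47 in EGF_MCOL against CONT_M (SE 0.20, adjusted p = 0.0139). These comparisons share the CONT_M libraries. Without CONT_M replicate 2 the adjusted p was 0.0702 in the former and 0.0758 in the latter, and without EGF_MCOL replicate 2 it was 0.0850 in the latter, with log2 differences of 2.42, 2.47 and 2.46.

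PAQR8 (ENSBTAG00000025494, chromosome 23, 24712112 to 24828368, plus strand) measured 33.8, 25.6 and 19.9 TPM in CONT_M, 58.9, 69.2 and 52.9 in EGF_M, and 51.0, 64.5 and 71.3 in EGF_MCOL. No CONT_M library reached a library with EGF, and the EGF groups overlapped. The log2 change in EGF_M against CONT_M was 1.19 (SE 0.20, adjusted p = 0.0403). Leaving out any of the 6 libraries gave 1.09 to 1.39 with adjusted p from 0.0581 to 0.136. For EGF_MCOL against CONT_M the log2 difference was nearly the same size, 1.199 (SE 0.23), and missed the threshold without and with the block (adjusted p = 0.0545 and 0.05003).

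PAQR7 (ENSBTAG00000021787, chromosome 2, 127207474 to 127237892, plus strand) measured 6.37, 4.004 and 1.81 TPM in CONT_M, 0.613, 0.690 and 0.415 in EGF_M, and 1.48, 0.678 and 0.949 in EGF_MCOL. All CONT_M libraries were above all others, with the CONT_M libraries themselves widely spread. The counts were 227, 277 and 83 in CONT_M, 17, 51 and 23 in EGF_M, and 106, 50 and 66 in EGF_MCOL. Its mean TPM was 7.09-fold lower in EGF_M and 3.92-fold lower in EGF_MCOL than in CONT_M. PAQR7 fell by 2.79 on the log2 scale in EGF_M against CONT_M (SE 0.47, adjusted p = 0.0403). Leaving out a library other than CONT_M replicate 3 gave adjusted p from 0.0836 to 0.151, and leaving out CONT_M replicate 3 gave 0.0217, the log2 changes running from -3.09 to -2.31. For EGF_MCOL against CONT_M the log2 difference was -2.002 (SE 0.47, adjusted p = 0.0707) and -1.94 with the block (adjusted p = 0.0426).

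PAQR5 (receptor gamma, ENSBTAG00000020352, chromosome 10, 16185527 to 16268129, plus strand) measured 19.4, 25.5 and 17.1 TPM in CONT_M, 23.2, 21.3 and 12.7 in EGF_M, and 23.4, 19.7 and 15.0 in EGF_MCOL. The 3 groups overlapped. The log2 difference was -0.13 (95% interval -0.76 to 0.51) for EGF_M against CONT_M and -0.16 (-0.67 to 0.35) for EGF_MCOL against CONT_M.

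The make-up of the PAQR sum shifted with these levels. PAQR6 took 33.0% ± 7.17 of it in CONT_M, 62.4% ± 3.95 in EGF_M and 63.6% ± 1.61 in EGF_MCOL. PAQR8 took 34.6% ± 6.49, 28.5% ± 3.02 and 27.4% ± 3.66, and PAQR5 took 27.1% ± 3.50, 8.90% ± 2.00 and 8.58% ± 2.14. PAQR7 took 5.19% ± 2.59, 0.268% ± 0.0511 and 0.460% ± 0.194 (all SD, n = 3). The smaller PAQR5 share thus went with a PAQR5 level that overlapped between groups.

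**Figure D3:**
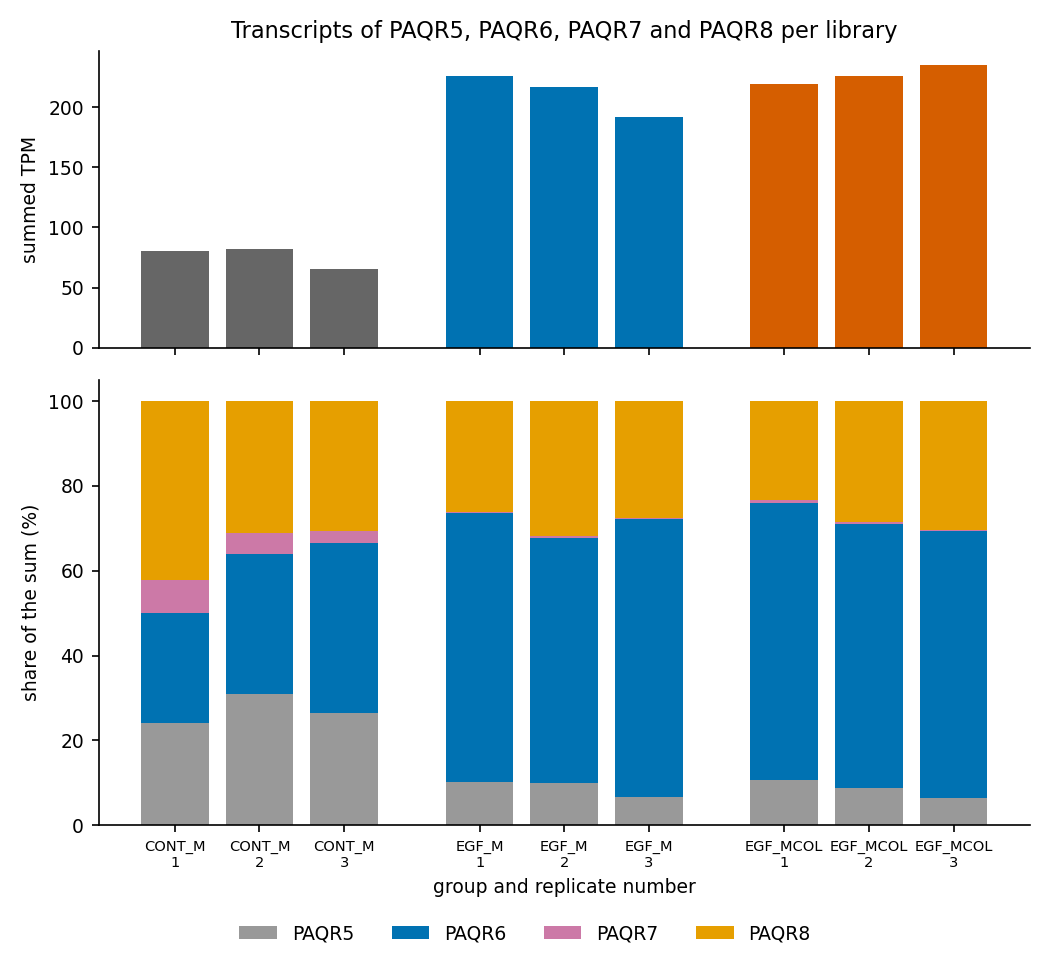
Upper panel, summed TPM of PAQR5, PAQR6, PAQR7 and PAQR8 in each library (y axis from 0), and lower panel, the share of each gene in that sum (%). The sum is 65.0 to 82.4 TPM in CONT_M and 192.2 to 235.3 in the libraries with EGF, where PAQR6 takes 58.0% to 65.7%.

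PGRMC1 (ENSBTAG00000019552, chromosome X, 3623022 to 3632154, plus strand) was the most abundant of the 9 genes in every group. It measured 279.1, 271.1 and 235.2 TPM in CONT_M, 246.0, 272.8 and 168.5 in EGF_M, and 274.1, 261.0 and 174.7 in EGF_MCOL. The groups overlapped, with log2 differences from CONT_M of -0.21 (95% interval -0.68 to 0.26) in EGF_M and -0.22 (-0.64 to 0.20) in EGF_MCOL. PGRMC2 (ENSBTAG00000010843, chromosome 17, 29460237 to 29480655, plus strand) measured 67.2, 63.8 and 67.5 TPM in CONT_M, 84.1, 88.9 and 88.3 in EGF_M, and 102.0, 88.6 and 76.2 in EGF_MCOL. The 6 libraries with EGF were all above the CONT_M libraries, but the log2 differences of 0.37 (SE 0.18, adjusted p = 0.279) and 0.34 (SE 0.17, adjusted p = 0.281) did not pass the threshold. PGRMC1 made up 79.7% ± 1.78 of the summed pair in CONT_M, 71.9% ± 5.42 in EGF_M and 72.4% ± 2.55 in EGF_MCOL.

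In order of mean TPM, CONT_M ran PGRMC1, PGRMC2, ESR1, PAQR8, PAQR6, PAQR5, NR3C1, PAQR7 and PGR, and the ranges of neighbours from ESR1 to PAQR5 overlapped. In EGF_M the order was PGRMC1, PAQR6, PGRMC2, PAQR8, ESR1, PAQR5, NR3C1, PGR and PAQR7, with overlap from ESR1 to NR3C1. EGF_MCOL had the same order except that PAQR7 and PGR, which overlapped, changed places.

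All 9 genes passed the filter on low counts in each comparison. In EGF_M against CONT_M, 3 of 9 receptor genes passed the threshold (PAQR6 and PAQR8 higher, PAQR7 lower), beside 1.79% of 12074 genes tested, and 3 passed with the block, beside 10.6%. The study's further criteria were a log2 fold change beyond 1 and a minimum TPM above 1, read here as TPM above 1 in each library. Under these criteria 2 receptor genes remained, since PAQR7 was under 1 TPM in EGF_M. The share of all genes meeting them is not given here, and the 1.79% is for the threshold alone. Groups did not overlap in TPM for 4 receptor genes that were higher in EGF_M (PAQR6, PAQR8, PGRMC2 and PGR), beside 11.9% of genes, and for PAQR7, which was lower, beside 11.8%. In EGF_MCOL against CONT_M, PAQR6 passed, beside 1.49% of 12509 genes, and with the block PAQR6 and PAQR7 passed, beside 5.26%. Groups did not overlap for 3 receptor genes that were higher in EGF_MCOL (PAQR6, PAQR8 and PGRMC2), beside 14.3% of genes, and for PAQR7, which was lower, beside 10.3%.

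Adding collagen gave no call in edgeR. In EGF_MCOL against EGF_M, 0 of 9 receptor genes passed, beside 0% of 12470 genes without the block and 0% with it, and 0 receptor genes had groups that did not overlap, beside 2.75% of genes higher and 0.818% lower. At an unadjusted p under 0.05, 51 genes passed without the block and 618 with it, 0 of them receptor genes in either fit, and DESeq2 called 0 genes. The log2 difference for PAQR6 was 0.06 (95% interval -0.27 to 0.39), for PAQR8 -0.01 (-0.50 to 0.47) and for PGRMC2 -0.06 (-0.38 to 0.27). The interval was wider for PAQR7, at 0.77 (-0.28 to 1.82), and for PGR, at -1.23 (-2.69 to 0.24), so neither a higher nor a lower level with collagen was shown for these genes.

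**Figure D4:**
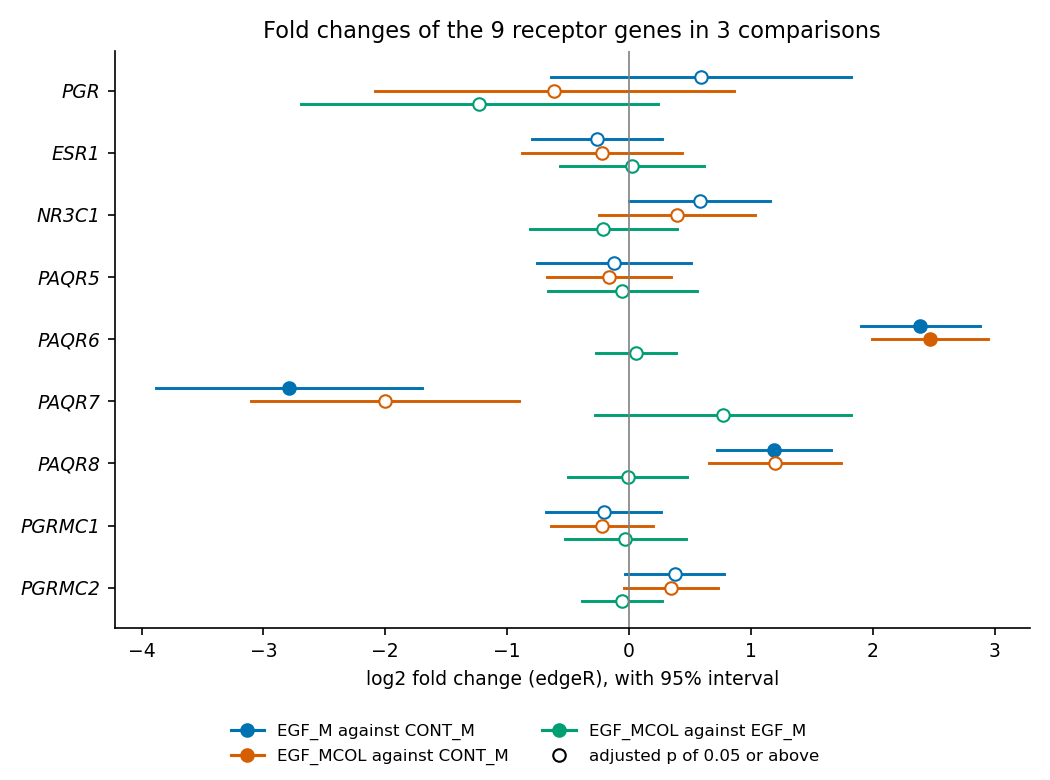
Log2 fold change (x axis) of each receptor gene in the 3 comparisons with its 95% interval from edgeR without the replicate block, with filled points for an adjusted p under 0.05. PAQR6 is filled in both comparisons with CONT_M, PAQR7 and PAQR8 in EGF_M against CONT_M, and the EGF_MCOL against EGF_M intervals all include 0.

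ESR2 (oestrogen receptor beta) had 0 to 15 counts per library and NR3C2 (mineralocorticoid receptor) 0 to 6, and neither passed the filter on low counts in any comparison. Of 9 other genes of the PAQR and PGRMC families, 7 were tested and 0 passed in any comparison, without or with the block.

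Nuclear steroid receptors are held ready for ligand by heat shock protein complexes. Of 11 chaperone genes tested in EGF_M against CONT_M, 0 passed without the block, and 2 fell with it, namely FKBP4 (-0.80, SE 0.16, adjusted p = 0.0235) and PPID (-0.64, SE 0.16, adjusted p = 0.0465), both co-chaperones of these complexes, beside the 10.6% of all genes that passed with the block. In EGF_MCOL against CONT_M, 0 of 11 passed without or with the block. From CONT_M to EGF_M, the levels of FKBP4 and PPID went from 141.2 ± 31.9 to 81.6 ± 17.1 TPM and from 207.9 ± 13.8 to 135.4 ± 17.9 TPM. The chaperone list had a median log2 difference of -0.35 in EGF_M against CONT_M, beside 0.01 over all genes tested, with 1 of 11 positive. Of 13 coregulators, PHB2, a prohibitin also known as a repressor of oestrogen receptor activity, fell with the block in EGF_M (-0.67, SE 0.17, adjusted p = 0.0466) and in EGF_MCOL (-0.76, SE 0.15, adjusted p = 0.0435) against CONT_M, and the list's medians were 0.06 and 0.24. A single call of 13 is near the shares of all genes called with the block, 10.6% and 5.26%.

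Genes known to respond to progesterone in the endometrium moved in both directions. Of 16 tested in EGF_M against CONT_M, 1 rose and 2 fell, and with the block 2 rose and 2 fell, beside 1.79% and 10.6% of all genes called, with a median of -0.20. AREG, a ligand of the EGF receptor, went from 15.4 ± 8.64 to 80.6 ± 29.9 TPM (log2 change 2.42, SE 0.43, adjusted p = 0.0448). ANPEP, a membrane aminopeptidase, went from 159.2 ± 65.7 to 16.4 ± 9.37 TPM (-3.30, SE 0.52, adjusted p = 0.0349), and FABP3, a fatty acid binding protein, from 122.8 ± 50.0 to 13.5 ± 4.02 TPM (-3.23, SE 0.44, adjusted p = 0.0256). The gene added by the block was MUC1, a cell surface mucin (2.01, SE 0.48, adjusted p = 0.0388), named here after its values were seen. Of 16 tested in EGF_MCOL against CONT_M, 2 fell, and with the block 1 rose and 3 fell, beside 1.49% and 5.26% of all genes called. ANPEP and FABP3 fell without the block (-3.40 and -3.53, adjusted p = 0.0373 and 0.0268). With the block AREG rose (2.36, adjusted p = 0.0163) and CRYGS, a crystallin, fell (-2.89, adjusted p = 0.0233).

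Of 10 genes known to respond to oestrogen, 0 passed in EGF_M against CONT_M without the block and 4 with it, beside 10.6% of all genes. TFF3, a secreted trefoil peptide (2.77, SE 0.57, adjusted p = 0.0265), and KRT19, a keratin that is also among the epithelial markers (1.09, SE 0.24, adjusted p = 0.0318), rose. MYB, a transcription factor (-2.16, SE 0.44, adjusted p = 0.0264), and PDZK1, a scaffold protein (-1.87, SE 0.46, adjusted p = 0.0438), fell. Of 11 tested in EGF_MCOL against CONT_M, 1 fell without the block, beside 1.49% of all genes. With the block 1 rose and 1 fell, beside 5.26%. MYB fell without the block (-2.74, SE 0.46, adjusted p = 0.0416), and KRT19 rose with it (1.01, SE 0.16, adjusted p = 0.0322).

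Of 10 genes known to respond to glucocorticoids, 1 rose with the block in EGF_M against CONT_M, namely ANGPTL4, a secreted inhibitor of lipoprotein lipase (2.88, SE 0.69, adjusted p = 0.0392), and 0 passed in EGF_MCOL against CONT_M. Of the enzymes of steroid metabolism, HSD11B1, which makes active glucocorticoid within cells, fell with the block in EGF_M (-1.02, SE 0.23, adjusted p = 0.0340) and in EGF_MCOL (-1.26, SE 0.24, adjusted p = 0.0426) against CONT_M, and was the only call among 10 and 11 tested. These single calls in lists of 10 or 11 are near the 10.6% and 5.26% of all genes called with the block. In EGF_MCOL against EGF_M, 0 genes of these lists passed.

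Of the cell type markers, 0 passed in any comparison without the block. With it, 10.6% of all genes tested passed in EGF_M against CONT_M, the share to set beside each count that follows. There 3 of 7 epithelial markers tested rose, namely EPCAM (0.70, adjusted p = 0.0401), KRT8 (0.88, adjusted p = 0.0315) and KRT19 (1.09, adjusted p = 0.0318). KRT18 was at 0.12 (adjusted p = 0.851), and CLDN4, the only negative value of the 7, at -0.26 (adjusted p = 0.485). Of 9 stromal markers, VIM rose (1.05, adjusted p = 0.0125) and DCN fell (-1.12, adjusted p = 0.0252), and VIM was the only positive value of the 9, whose median without the block was -0.65. Of 5 smooth muscle markers, TAGLN fell (-1.57, adjusted p = 0.00719), while MYH11 was at 0.07 (adjusted p = 0.855). In EGF_MCOL against CONT_M, 1 epithelial marker (KRT19) and 0 stromal or smooth muscle markers passed with the block, beside 5.26% of all genes. The part of these markers in the receptor results was not tested.

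**Figure D5:**
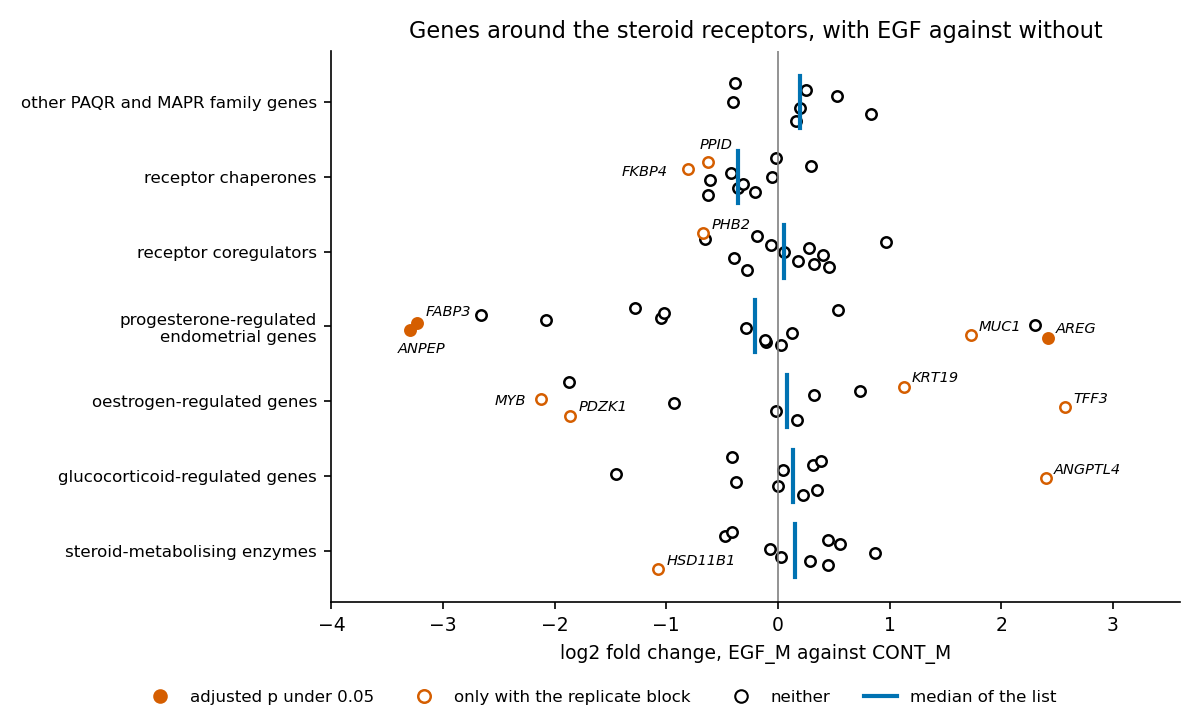
Log2 fold change in EGF_M against CONT_M (x axis) of the genes tested in each list shown, with filled points for an adjusted p under 0.05, orange rings for genes that passed only with the replicate block, and a bar for the median of the list. AREG lies at 2.42, FABP3 at -3.23 and ANPEP at -3.30, on both sides of a list median of -0.20.

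The genes whose log2 CPM followed each receptor most closely were found over 9 libraries and 12858 genes, as a description, since these libraries share groups and replicate numbers. PAQR6 was closest to CSTA, a protease inhibitor of epithelia (r = 0.993), and SDCBP (r = 0.990). PAQR8 was closest to BTC, a ligand of the EGF receptor (r = 0.994), and AP2B1 (r = 0.973), and PAQR7 to PTCD3 (r = 0.984) and NUP85 (r = 0.971). PAQR5 was closest to SDHAF1 (r = 0.950) and OXNAD1 (r = 0.942). The nearest genes were CCDC90B (r = 0.962) and RESF1 (r = 0.950) for ESR1, CLCA2 (r = 0.948) and FOXJ2 (r = 0.941) for NR3C1, and ZFP82 (r = 0.876) and GNMT_1 (r = 0.867) for PGR. For PGRMC1 they were RASSF4 (r = 0.956) and GALK2 (r = 0.952), and for PGRMC2 RAMAC and VNN1 (r = 0.965 each).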

How the data were processed

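Total RNA from 9 bovine gland cultures was sequenced by the study as paired reads of 150 bases (SMART-Seq HT PLUS kit). The authors mapped the reads to ARS-UCD2.0 in CLC Genomics Workbench 25.0.1 with default parameters and deposited a table of raw counts per gene and a table of TPM values, a level scaled by transcript length and library size. The annotation release and the strand setting were not given in the sources used here. Groups and replicate numbers came from the labels.

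The deposited counts were compared with edgeR 4.0.16 in R 4.3.3 (TMM scaling, filterByExpr with a minimum count of 10, quasi-likelihood test, 6 libraries in each comparison). P-values were adjusted by the Benjamini-Hochberg method over all genes tested, with a threshold of 0.05. Standard errors (SE) are the log2 fold change over the square root of the F statistic. The deposited TPM values were used for levels, their SDs and the overlap of groups. The code was tested on simulated data. Alternatives used DESeq2 1.42.0, limma 3.58.1 on log2(TPM + 1) and log2(TPM + 0.1), and the other settings of the closing section.

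The members and the gene lists were chosen with earlier results of these data known. All 9 members are named, with up to 4 genes of each other list that passed the threshold in any comparison without or with the replicate number as a block (largest log2 fold change first), and for each member the 2 genes most correlated with it. The labels number replicates 1 to 3 in each group without naming animals. After subtracting group means, libraries that share a number correlated over genes at 0.329 to 0.437 between EGF_M and CONT_M, 0.471 to 0.687 between EGF_MCOL and EGF_M, and 0.278 to 0.350 between EGF_MCOL and CONT_M. The number was therefore used as a block in a second fit, given beside the main one. The main fit had no block and treated the libraries as unpaired, and its values are those given where no block is named. The study's text speaks of individuals among the libraries with EGF but does not tie them to replicate numbers. The labels do not say that replicates came from separate animals. The p-values of the main fit therefore measure the spread between these libraries, which may be technical in part. Those with the block measure what is left of that spread once the replicate number is taken out. Intervals on counts are exact Poisson intervals at 95% and cover counting error only. A further gene of the steroid receptor list is not reported here.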

Additional observations from a re-analysis of the deposited data

How the results depend on the processing

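For EGF_M against CONT_M, 216 genes passed, and the count was 1277 with the replicate block, 957 with the likelihood ratio test, 1235 with DESeq2, 580 with all 9 libraries in 1 fit, and 71 with limma on log2(TPM + 1) without a filter. Leaving out 1 library gave 5 to 267 genes, and leaving out 1 replicate number with the block 36, 614 and 1867. Of the 3 receptor genes that passed, 1 (PAQR6) did so in each limma setting, 0 to 2 without 1 library, and 1 to 3 with the block and without 1 replicate number. For EGF_MCOL against CONT_M, 186 genes passed, and 658 with the block, 1004 with the likelihood ratio test, 1419 with DESeq2, 601 with all 9 libraries and 53 with limma without a filter. Leaving out 1 library gave 3 to 186, and 1 replicate number with the block 109 to 2406. The receptor genes that passed there numbered 1, against 2 with the block, without a filter on low counts or after downsampling, 3 with the likelihood ratio test, DESeq2 or all 9 libraries, 0 to 1 without 1 library, and 1 to 4 with the block and without 1 replicate number. For EGF_MCOL against EGF_M the count of 0 genes became 1 with the block and without replicate 2, and 46 without replicate 3. The causes were not tested.

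The replicate block changed the call of PAQR7 in EGF_MCOL against CONT_M and of no other receptor gene. PAQR6, PAQR7 and PAQR8 kept their direction against CONT_M in every alternative run. Directions reversed for values near 0. For EGF_MCOL against EGF_M these were ESR1 with the block (-0.012), PAQR8 after downsampling (0.026), and, with limma on log2(TPM + 1), with or without a filter, PAQR5 (0.040), PAQR8 (0.041), PGRMC1 (0.048) and PGRMC2 (0.021), or 0.044, 0.042, 0.048 and 0.021 on log2(TPM + 0.1). With the block and without replicate 1 they were ESR1 (-0.12), PAQR5 (0.0089) and PAQR8 (0.12). With the block and without replicate 2 they were ESR1 (-0.059), PAQR5 (0.036), PAQR8 (0.028) and PGRMC1 (0.017). With the block and without replicate 3 they were PAQR6 (-0.0054) and PGRMC2 (0.047). With 1 library left out, log2 differences in that comparison ran from -0.12 to 0.26 for ESR1, -0.26 to 0.083 for PAQR5, -0.0044 to 0.11 for PAQR6, -0.17 to 0.16 for PAQR8, -0.19 to 0.11 for PGRMC1 and -0.11 to 0.011 for PGRMC2. Against CONT_M, PAQR5 ran from -0.23 to 0.082 in EGF_M (0.074 with the block and without replicate 3) and ESR1 from -0.39 to 0.0069 in EGF_MCOL. Depth limits PGR most, at 10 to 48 counts per library.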

Other observations

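GPER1, a membrane receptor for oestrogens, had 2 to 9 counts per library in CONT_M, 1 to 3 in EGF_M and 11 to 29 in EGF_MCOL. The EGF_MCOL libraries (0.142 to 0.363 TPM) and EGF_M libraries (0.0125 to 0.0999 TPM) did not overlap, beside 2.75% of genes tested that were higher without overlap. The adjusted p was 1.00 in edgeR's quasi-likelihood test. No fold is given, since the EGF_M libraries were at or below 3 counts.

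The 9 receptor genes summed to 441.9 ± 43.1 TPM in CONT_M, 566.0 ± 72.9 in EGF_M and 590.3 ± 69.8 in EGF_MCOL (SD, n = 3).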
